A study of Mus musculus with 6 samples.

Results

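The distal CpG islands (CGIs) of 17 mouse chromosomes were described in liver DNA. Distal islands were those starting no more than 1.5 Mb below the highest probe position of their chromosome, on chromosomes 1 to 19 except 7 and 15. There were 209 of them among 13832 islands of the array, and all 209 could be compared between genotypes. They were set beside the 11629 inner islands of the same 17 chromosomes, of which 11618 could be compared. The files do not mark islands, so an island was here a run of at least 3 array probes with gaps of at most 500 bp between their starts. The choice of islands used position and no measured value.

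Mouse chromosomes carry their centromere at the low-coordinate end, so that the high-coordinate end of the assembly leads towards the telomere of the long arm. Telomeres consist of short repeats that hold no genes, and the subtelomeric region next to them passes from repeats shared between chromosomes to ordinary sequence with genes. CpG islands are stretches rich in CpG dinucleotides that overlap many gene starts and are mostly free of 5-methylcytosine in normal tissues, whereas repeats near telomeres are usually heavily methylated. The distance used here was counted from the last probe of the array and not from the telomere itself, and the telomeric repeats were not measured.

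The livers came from 12-month-old male mice, given as strain FVB in the labels, with 3 Mdr2-KO and 3 Mdr2-/+ animals and an array for each. Per the study's methods the Mdr2-KO stock was FVB.129P2-Abcb4tm1Bor, and the Mdr2-/+ mice were bred from it and FVB/NJ. Mdr2 (Abcb4) encodes the transporter that moves phosphatidylcholine into bile. The Mdr2-KO animals lack it throughout the body, and the bile that forms without phospholipid injures their bile ducts and keeps the liver inflamed. Heterozygous Mdr2-/+ animals, which keep a working copy, served as controls. Whole liver was used, so that a change within hepatocytes and a change in the mixture of cells cannot be told apart. Methylated DNA immunoprecipitation (MeDIP) enriches DNA fragments that bind an antibody to 5-methylcytosine. Per the labels, the enriched fraction was read in the Cy5 channel and the untreated input of the same liver in Cy3. The level of an island is the mean over its probes of the log2 ratio of MeDIP over input signal, after the median of the array was set to 0. A level above 0 therefore means more enrichment than at the median probe and is no percentage of methylated CpGs.

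The input signal was well above background at 89.0% to 94.4% of the probes of the distal islands and the MeDIP signal at 78.5% to 88.4%. The SD of the log2 ratios ran from 1.52 to 1.83 and was highest on the array of Mdr2-/+ replicate 1. Slide 1 carried replicate 1 of both genotypes, slide 2 carried Mdr2-/+ replicates 2 and 3, and slide 3 carried Mdr2-KO replicates 2 and 3. On slides 2 and 3 the effects of slide and genotype cannot be told apart, so the difference between the replicates 1 is given as the value within a slide for the islands whose difference is described. It rests on a single mouse of each genotype.

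The distal islands were spread unevenly over the chromosomes. Chromosome 4 held 43, chromosome 11 held 40 and chromosome 2 held 34, which together made 56.0% of the 209. Chromosomes 10, 17 and 18 held 1 each and chromosome 1 held 2. Over the 17 ends there were 8.20 islands per Mb, compared with 5.46 per Mb further in, and 9 of the 17 ends were denser than the inner part of their chromosome. The median gap to the nearest island was 22114 bp for distal and 26899 bp for inner islands. In their build on the array both kinds were alike, with a median of 5 probes each and a median span of 652 bp for distal and 648 bp for inner islands.

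Distal islands were somewhat less enriched for methylation than inner islands. Their median level was -0.25 (quartiles -0.61 and 0.34), compared with -0.14 (quartiles -0.53 and 0.43) for the inner islands, and the order held on all 6 arrays. In the Mdr2-/+ livers the median of the distal islands was -0.23, -0.25 and -0.26 in replicates 1 to 3, and that of the inner islands was -0.10, -0.14 and -0.14. In the Mdr2-KO livers the distal median was -0.16, -0.24 and -0.24 and the inner median -0.13, -0.16 and -0.13. The gap between both medians was smallest in Mdr2-KO replicate 1, at -0.03, and was -0.08 to -0.13 in the other 5 livers. As a mean, it was -0.12 ± 0.01 (SD, n = 3) in Mdr2-/+ and -0.07 ± 0.04 (SD, n = 3) in Mdr2-KO livers. The gap is small beside the spread among islands, and 12 of the 17 ends had a median below that of the inner islands of their chromosome while 5 had one above it.

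**Figure D1:**
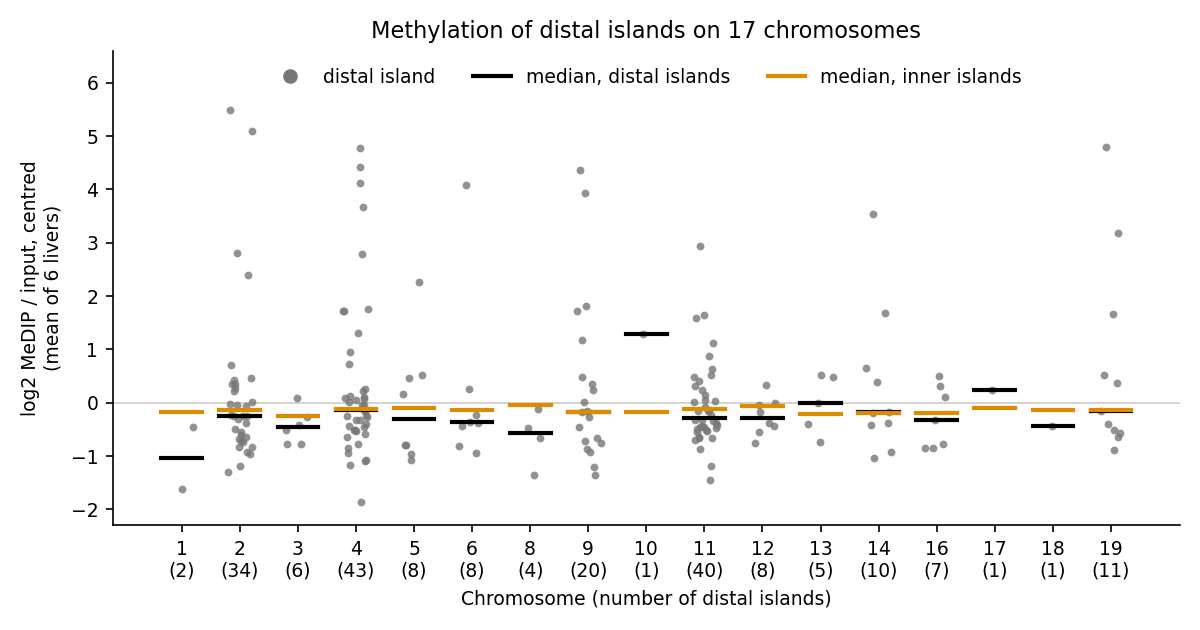
Level of the 209 distal islands (mean of the 6 livers, centred log2 MeDIP over input) on each of 17 chromosomes, with the number of islands in brackets. Grey points are islands, black lines the median of the distal islands and orange lines the median of the inner islands of the same chromosome. Most points lie below 0, a few islands on chromosomes 2, 4, 6, 9 and 19 stand above 4, and the black line lies below the orange line on 12 chromosomes.

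Most distal islands were poorly enriched and a few were strongly methylated. The level was below 0 at 130 of the 209 (62.2%; inner islands 58.0%), above 1 at 30 (14.4%; inner 15.6%) and at 3 or more at 12 (5.74%; inner 8.5%). When all islands were ranked by level and cut into 5 equal classes, the lowest class held 53 distal islands (25.4%; inner 20.5%) and the highest 33 (15.8%; inner 19.2%). The distal set thus leaned towards the low end of the scale.

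The highest level was on chromosome 2, at an island of 4 probes at chr2:180958231-180958572 (mm8 build). Its level was 6.08, 5.25 and 5.16 in Mdr2-/+ replicates 1 to 3 and 5.52, 5.51 and 5.48 in Mdr2-KO replicates 1 to 3, and the genotypes overlapped. The next, of 3 probes at chr2:181423761-181424022, stood at 5.80, 4.68 and 4.71 in Mdr2-/+ and at 5.18, 5.25 and 4.99 in Mdr2-KO livers. At both islands Mdr2-/+ replicate 1 was the highest of the 6 arrays. Among the lowest was an island of 11 probes at chr1:196320408-196321632, with -1.72, -1.49 and -1.70 in Mdr2-/+ and -1.44, -1.83 and -1.58 in Mdr2-KO livers. The differences between genotypes at these 3 islands were 0.01, 0.08 and 0.03. The next highest level, at chr19:61279781-61280225, and the lowest of all, at chr4:153930080-153930689, had differences of 1.12 and -0.46. A further island of low level, chr11:120807056-120807604, was at -2.11 in Mdr2-/+ replicate 1 and between -1.70 and -1.05 in the other 5 livers. Its MeDIP signal was well above background at 25% of the probes in Mdr2-/+ and 50% in Mdr2-KO livers. At chr1:196320408-196321632 the shares were 54.5% and 72.7%. These low levels thus rest in part on dim signal.

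As a set, the distal islands hardly moved between genotypes. The median difference, Mdr2-KO minus Mdr2-/+, was 0.01 (quartiles -0.12 and 0.24), compared with -0.001 for the inner islands, and 112 of the 209 islands (53.6%) had a difference above 0. Within slide 1 the median difference was 0.05, with 55.5% above 0, and that of the inner islands -0.04, with 45.3% above 0. The difference lay within 0.5 of 0 at 181 islands (86.6%), and 9 ends had a median difference above 0 and 8 below 0.

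Single distal islands did differ, in the direction of more methylation in Mdr2-KO livers. Methylation was higher at 12 of the 209 (5.74%) at an adjusted p under 0.05 from limma, when 4.28% of all 13821 islands tested were. It was lower at 0 of the 209 by limma, when 0.217% of all islands were, while an unadjusted p under 0.05 was reached by 14 distal islands that were lower (6.70%; 5.51% of all) and 38 that were higher (18.2%; 14.8% of all). The test named in the study's methods found 12 lower without adjustment (5.74%; 6.08% of all) and 0 with it (0.00724% of all). The shares of calls lie near the background, so the counts are no result about chromosome ends. The 3 Mdr2-KO livers all lay above the 3 Mdr2-/+ livers at 41 distal islands (19.6%; 15.9% of all islands), and all below at 17 (8.13%; 10.8% of all islands). A Z-score was also computed anew for the islands as defined here. It is not the score of the study, from which only the threshold of 0.7 was taken. At a difference of 0.7 or more in this Z-score, 3 distal islands (1.44%; 1.31% of all) were higher. At -0.7 or less 0 were lower (0.0362% of all). Those 3 were also the 3 largest rises by log2 difference.

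The largest rise was at an island of 6 probes on chromosome 2, chr2:180571280-180572339, 1.22 Mb from the highest probe. Its level was 2.44, 1.46 and 1.65 in Mdr2-/+ replicates 1 to 3 and 3.77, 4.01 and 3.49 in Mdr2-KO replicates 1 to 3. Every Mdr2-KO liver lay above every Mdr2-/+ liver, and Mdr2-/+ replicate 1 was the highest control. The means were 1.85 ± 0.52 (SD, n = 3) and 3.75 ± 0.26 (SD, n = 3), which makes a rise of 1.90 (adjusted p = 0.0118 by limma, standard error 0.26), and of 1.33 within slide 1.

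On chromosome 11, an island of 7 probes at chr11:120972488-120973127, 0.67 Mb from the highest probe, went from modest to clear enrichment. Its level was 1.09, 0.41 and 0.67 in Mdr2-/+ and 2.38, 2.78 and 2.20 in Mdr2-KO livers, with no overlap. The rise of 1.73 had a standard error of 0.21 and an adjusted p of 0.0083 by limma, and the rise within slide 1 was 1.30. On chromosome 4, an island of 5 probes at chr4:154496772-154497253 stood at 1.19, 0.71 and 1.04 in Mdr2-/+ and at 2.71, 2.57 and 2.14 in Mdr2-KO livers. Here the rise was 1.49 (adjusted p = 0.0093 by limma, standard error 0.19), and at 1.52 within slide 1 it was the largest of the 12 there.

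On chromosome 12, an island of 12 probes at chr12:119292575-119293948 crossed from below the median probe to above it. It stood at -0.43, -0.23 and -0.13 in Mdr2-/+ and at 0.77, 1.37 and 0.63 in Mdr2-KO livers. The rise was 1.19 (adjusted p = 0.0204 by limma, standard error 0.20), and within slide 1 it was 1.20. On chromosome 5, chr5:151220958-151221931 rose from 2.17, 1.30 and 1.59 in Mdr2-/+ to 2.89, 3.05 and 2.58 in Mdr2-KO livers, with 0.73 within slide 1. On chromosome 19, chr19:61279781-61280225 had high levels in all mice, 4.75, 4.02 and 3.93 in Mdr2-/+ and 5.27, 5.60 and 5.18 in Mdr2-KO livers, a rise of 1.12 overall and of 0.52 within slide 1. On chromosome 9, chr9:122771685-122771989 went from 0.66, 0.56 and 0.66 to 1.64, 2.12 and 1.40, a rise of 1.09 overall and of 0.98 within slide 1. The 7 islands described so far were those with a difference of 1 or more.

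The other 5 rises were smaller, between 0.58 and 0.80. The last island of chromosome 14, chr14:122761818-122762247, stood at -1.07, -0.65 and -0.64 in Mdr2-/+ and at 0.02, 0.18 and -0.17 in Mdr2-KO livers. It was poorly enriched in the controls and near the median probe in Mdr2-KO livers, and its difference was 0.80 overall and 1.1 within slide 1. A pair of islands on chromosome 11, chr11:120537399-120537924 and chr11:120414628-120414957, had differences of 0.78 and 0.77, and of 0.52 and 0.30 within slide 1. The remaining 2 lay outside the rule that chose the islands to be described, which took the 10 largest, and were named after their values were seen. They were a long island of 14 probes at chr2:181599626-181601243, with a difference of 0.59 and of 0.50 within slide 1, and chr11:121518252-121519741, with 0.58 and 0.42. Chromosome 11 thus held 4 of the 12, among its 40 distal islands, and chromosome 2 held 2, among its 34. Any were held by 8 of the 17 ends, when 4.28% of all islands were called higher.

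**Figure D2:**
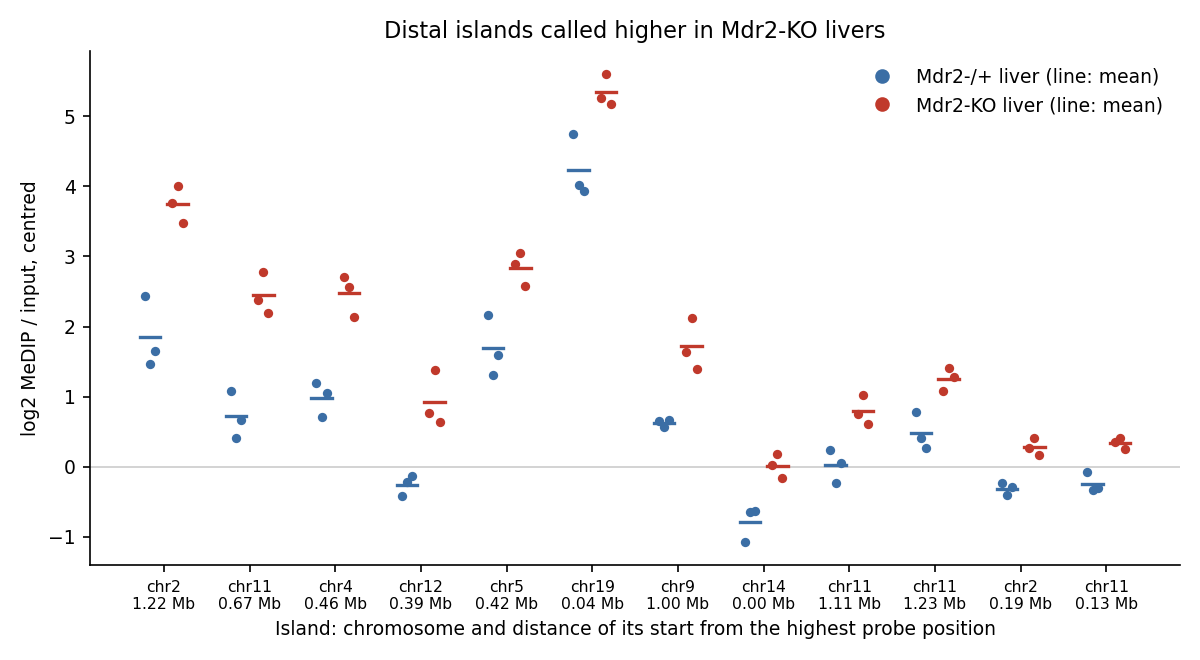
Level (centred log2 MeDIP over input) of the 12 distal islands called higher in Mdr2-KO livers, in order of the difference. Each point is a liver, blue for Mdr2-/+ and red for Mdr2-KO, short lines are means over 3 livers, and the labels give the chromosome and the distance from the highest probe. At every island the 3 red points lie above the 3 blue points.

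Across the 12 islands the mean level ranged from -0.79 to 4.24 in Mdr2-/+ and from 0.01 to 5.35 in Mdr2-KO livers. All 12 were higher in the Mdr2-KO mouse within slide 1, by 0.30 to 1.52. With slide as a fixed block, which leaves the contrast of that pair, limma called 0 of the 209 distal islands higher (0.0506% of all islands) and 0 lower (0.0289% of all), while an unadjusted p under 0.05 was reached by 14 rises (6.70%; 6.34% of all), 8 of them among the 12, and by 11 falls (5.26%; 7.94% of all). The 12 also rested on single livers to different degrees. Without Mdr2-KO replicate 1, 0 of the 209 were called higher (0.239% of all islands), and without Mdr2-/+ replicate 1 it was 41 (19.6%; 19.1% of all). Without Mdr2-/+ replicates 2 or 3 it was 3 and 2 (1.44% and 0.957%; 0.658% and 0.463% of all), and without Mdr2-KO replicates 2 or 3 it was 4 and 6 (1.91% and 2.87%; 1.09% and 3.21% of all). The distal counts thus moved together with those of the whole array. The islands on chromosome 11 at 0.67 Mb and on chromosome 4 were each called in 5 of these 6 settings, those on chromosome 2 at 1.22 Mb, 12 and 9 in 3, and the other 7 in 1.

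The size of several rises depended on the normalization. With loess within arrays the largest rise, on chromosome 2, was 0.62, that on chromosome 11 at 0.67 Mb 0.92, that on chromosome 4 0.59 and that on chromosome 14 0.48, and these stayed called together with chromosome 12 at 0.83. The other 7 were not called with loess. Of these, chr19:61279781-61280225 fell furthest, to 0.15 (adjusted p = 0.815 by limma), while chr5:151220958-151221931 was at 0.40, chr9:122771685-122771989 at 0.46, and chr11:120537399-120537924 and chr11:120414628-120414957 at 0.39 and 0.50. Under normexp background correction none of the 12 was called, when 0 of all 13821 islands were, and the rises on chromosomes 12 and 19 were 0.61 and 1.75 and that at chr2:181599626-181601243 was 0.19.

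Each signal was also looked at alone. The 12 were chosen on the ratio of both signals, so a higher MeDIP signal at them follows in large part from the choice. At the 12 islands the input signal (log2, centred in the same way) differed by -0.18 to 0.03, whereas the MeDIP signal differed by 0.47 to 1.76. Tested alone by limma, the MeDIP signal was higher at 7 of the 209 distal islands (3.35%; 2.92% of all), all 7 among the 12, and lower at 1 (0.478%; 0.535% of all). That island, chr13:120581399-120582094, was named after its value was seen and was not called by the ratio. The input signal was higher at 0 distal islands (0% of all) and lower at 0 (0.00724% of all), while 2 rises (0.957%; 1.48% of all) and 4 falls (1.91%; 3.13% of all) of the input reached an unadjusted p under 0.05. The 2 were the last island of chromosome 18 and chr2:181423761-181424022. The 4 were chr19:61279781-61280225 with -0.18 and the islands chr14:121598525-121599430, chr14:121625759-121626219 and chr14:122117815-122118848. At chr19:61279781-61280225, which is among the 12, the MeDIP signal alone differed by 0.87 and was not called (adjusted p = 0.0851 by limma).

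Within the called islands the rise was shared by nearly all probes. Of their 81 probes 75 were higher in the mean of the Mdr2-KO livers, and at 10 of the 12 islands every probe was. The islands were chosen on the mean over these probes, so this count follows in large part from the choice. The chromosome 11 island at 0.67 Mb had all 7 probes with no overlap between genotypes, with probe differences of 1.07 to 2.27. The island at chr11:121518252-121519741 was the least even, with 6 of 11 probes higher and probe differences of -0.38 to 2.19. Its last probes had differences of 0.78 to 2.19 and those before them -0.38 to 0.05. At the probe with 2.00 the MeDIP signal was well above background on 0 Mdr2-/+ and 2 Mdr2-KO arrays. With dim input left out, the difference of this island was 0.40 and not called (adjusted p = 0.0733 by limma). On chromosome 12 all 12 probes were higher, by 0.07 to 2.27, and 7 of them without overlap. At 9 of these 12 probes the MeDIP signal was well above background on all 6 arrays. At the probes with differences of 2.27 and 1.97 it was so on 2 of the 3 Mdr2-/+ arrays. At the first probe, with a difference of 1.22, it was so on 0 of them. In the chromosome 2 island of 14 probes, 12 were well above background on all arrays. Its largest probe difference, 1.89, was at a probe with 1 such Mdr2-/+ array. These probe differences thus rest in part on dim control signal.

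**Figure D3:**
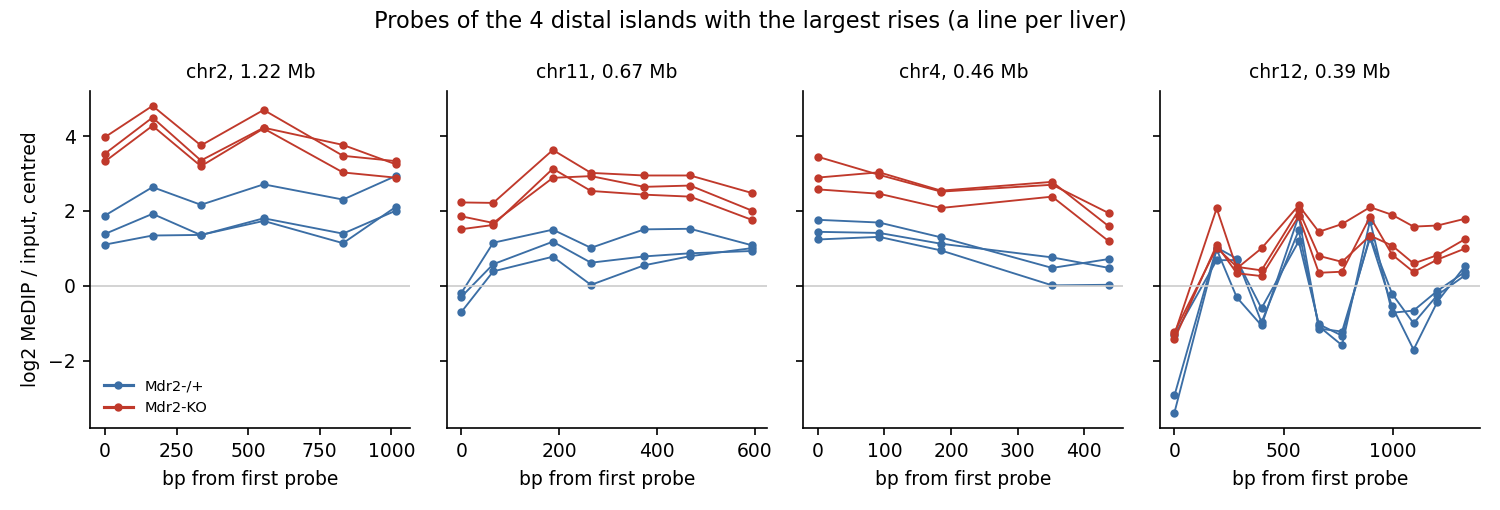
Probe values (centred log2 MeDIP over input) along the 4 distal islands with the largest rises, against the distance in bp from the first probe, with a line for each liver. On chromosomes 2, 11 and 4 the red Mdr2-KO lines run above the blue Mdr2-/+ lines along most or all of the island, and on chromosome 12 they part at some probes and meet at others.

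The islands next to the 12 were described as well. The nearest neighbour was called at 0 of the 12 islands, when 4.28% of all islands were called higher and 0.217% lower. At that share the count is no result about the neighbours. Their difference ranged from -0.16 to 0.73 (median 0.03) at gaps of 0.554 to 643 kb. Beside the largest rise, on chromosome 2, it was 0.67 and not called. Next to the chromosome 4 island, 1.22 kb further on, lay a strongly methylated island with a level of 4.78 and a difference of -0.10. The neighbour of the chromosome 12 island, at 1.19 kb, had a difference of -0.16. On chromosome 19 the neighbour at 2.86 kb, chr19:61283087-61283469, had a difference of 0.73 that was not called (adjusted p = 0.143 from limma). It stood at 3.36, 2.60 and 2.48 in Mdr2-/+ and at 3.25, 3.73 and 3.64 in Mdr2-KO livers, and its value within slide 1 was -0.11.

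No distal island was called lower, and the 5 largest falls among islands without overlap were modest. The first was chr4:154604479-154605112, with 0.27, 0.32 and -0.16 in Mdr2-/+ and -0.23, -0.48 and -0.59 in Mdr2-KO livers. Its difference was -0.57 (adjusted p = 0.0962 from limma) and -0.50 within slide 1. Input and MeDIP were well above background at only 33.3% of its 3 probes, so these values rest in part on dim signal. The next was chr11:120489089-120489676, with a difference of -0.48 (adjusted p = 0.0958 from limma), which was -0.15 within slide 1 and turned to 0.05 under normexp background correction. The other 3 were chr2:181530444-181530885 with -0.47, chr4:153930080-153930689 with -0.46 and chr5:150790836-150791341 with -0.39, and within slide 1 they had -0.37, -0.08 and -0.31. At the first of these 3, input and MeDIP were well above background at 50% of the probes. The island on chromosome 4 at 153930080 also had the lowest level of the 209, with -1.81, -1.63 and -1.45 in Mdr2-/+ and -1.89, -2.23 and -2.15 in Mdr2-KO livers. Its MeDIP signal was well above background at 50% of the probes in each genotype, so these values rest in part on dim signal.

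Neither level nor difference followed the distance from the end in a simple way. The median level was -0.26 in the last 0.5 Mb (85 islands), -0.41 from 0.5 to 1 Mb (56 islands) and -0.07 from 1 to 1.5 Mb (68 islands). Beyond the limit it was -0.18 from 1.5 to 3 Mb (214 islands), -0.01 from 3 to 6 Mb (339 islands) and -0.14 further in. The median difference was 0.01, -0.02 and 0.07 in the 3 distal bands and -0.02, 0.02 and -0.001 in the bands beyond. Across the 209 islands Pearson's r between distance and level was 0.02 and between distance and difference 0.07, as a description of islands that share arrays. The 3 distal bands held 7, 1 and 4 of the called islands, among 85, 56 and 68, when 4.28% of all islands were called higher. In the bands beyond it was 7 of 214, 15 of 339 and 461 of 11065. These counts were not compared by a test. The 182 islands within 1.5 Mb of the lowest probe position lay at the centromeric side. Their median level was -0.16 and their median difference -0.01, both close to the medians of the inner islands. The level was below 0 at 62.6% of them (distal 62.2%, inner 58.0%) and above 1 at 14.8% (distal 14.4%, inner 15.6%). A lean towards low levels like that of the distal set was thus seen at this side too.

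**Figure D4:**
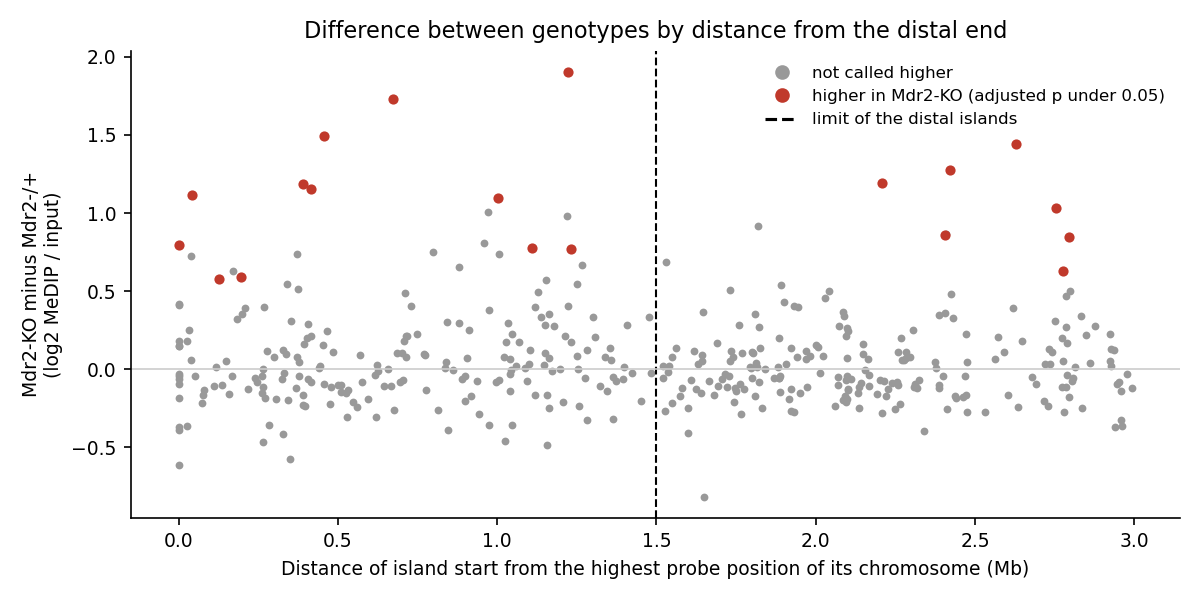
Difference between genotypes (Mdr2-KO minus Mdr2-/+, log2 MeDIP over input) against the distance in Mb of the island start from the highest probe of its chromosome, for all islands up to 3 Mb. Red points are islands called higher by limma, grey points were not called higher, and the dashed line marks the limit of 1.5 Mb. Red points occur on both sides of the line, 12 of 209 within it and 7 of 214 beyond, amid grey points scattered about 0.

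The last island inside the limit on each of the 17 chromosomes had levels of -1.63 to 3.53 (median 0.01) and differences of -0.37 to 0.54. The first island outside had levels of -1.01 to 5.16 (median 0.07) and differences of -0.17 to 0.69. The nearest of them lay at 1.48 Mb and 1.52 Mb. Although the medians were close, neighbours across the limit could be unlike, as on chromosome 14, with 3.53 inside and -0.79 outside, and on chromosome 4, with 1.30 inside and 5.16 outside.

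The most distal island of each chromosome was looked at in turn. At 14 of the 17 chromosomes it began within 1.5 kb of the highest probe, and on chromosome 1 it began 266 kb from it. The 17 levels ranged from -1.07 to 3.17, with a median of -0.16, and 8 of the 17 differences were above 0. The highest level among them was at chr19:61283087-61283469, described above as a neighbour. On chromosome 11 the last island, chr11:121646213-121646773, was also well methylated, at 3.31, 2.24 and 2.64 in Mdr2-/+ and 3.22, 3.16 and 3.07 in Mdr2-KO livers. The genotypes overlapped, and the difference was 0.42 overall and -0.08 within slide 1. On chromosome 12, chr12:119681837-119682312 had tight values of -0.24, -0.26 and -0.24 in Mdr2-/+ and 0.14, 0.15 and 0.20 in Mdr2-KO livers, with no overlap and a difference of 0.41 that was not called (adjusted p = 0.0656 from limma) and was 0.37 within slide 1. The lowest difference among them was on chromosome 5, at chr5:151636919-151637480. Its level was -0.96, -0.78 and -0.55 in Mdr2-/+ and -0.95, -1.89 and -1.29 in Mdr2-KO livers. Only the Mdr2-KO replicates on slide 3 were low, and the difference within slide 1 was 0.01. The MeDIP signal there was well above background at 33.3% of the probes used in each genotype. These values thus rest in part on dim signal. Of the 17, limma called the chromosome 14 island alone, when 4.28% of all islands were called higher.

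The last island of chromosome 13, chr13:120606875-120607139, had the widest spread within genotypes of the 209 and followed the slide. It stood at 1.93 in Mdr2-/+ replicate 1 and at 1.46 in Mdr2-KO replicate 1, the pair on slide 1. The other 4 livers had -0.48, 0.07, -0.17 and 0.11. The difference between genotypes was -0.04 overall and -0.47 within slide 1. The MeDIP signal carried the split, with 2.06 and 1.48 on slide 1 and -0.31 to 0.24 on the other slides, while the input signal was between -0.07 and 0.08 on all 6 arrays, and each of its 3 probes showed it. The island with the next widest spread, chr11:120766873-120767159, had the same order, with 0.98 and 1.1 on slide 1 and -0.33 to 0.23 elsewhere, and was named after its values were seen. Both arrays of slide 1 lay above the other 4 at 20 distal islands (9.57%; 12.6% of all islands) and below at 8 (3.83%; 3.55% of all), so that such islands were not more frequent here than over the array. Whether the slide or the animals on it carried this split was not tested.

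**Figure D5:**
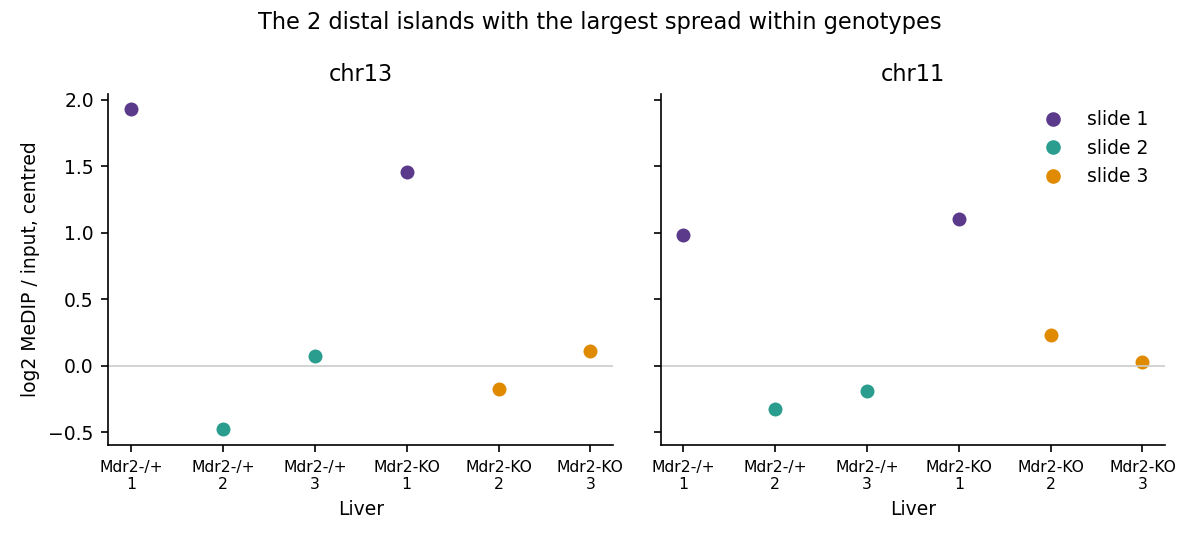
Level (centred log2 MeDIP over input) in each of the 6 livers at the last island of chromosome 13 and at an island of chromosome 11, the 2 distal islands with the largest spread within genotypes. Points are coloured by slide. In both panels the Mdr2-/+ and the Mdr2-KO liver on slide 1 lie above the other 4 livers.

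The difference between genotypes was also set beside the level. Level is the mean over all 6 livers, so a rise in Mdr2-KO livers itself lifts an island into a higher class, and what follows is a description. Over the 5 classes of level, from lowest to highest, the median difference of the distal islands was -0.10, -0.04, 0.02, 0.09 and 0.49, and that of the inner islands -0.06, -0.07, -0.05, 0.05 and 0.26. The classes held 0, 1, 2, 2 and 7 of the 12 called islands, among 53, 45, 39, 39 and 33 distal islands. Of the inner islands 14, 29, 53, 149 and 238 were called higher, among 2382, 2374, 2346, 2291 and 2225. Of the 7, chr9:122771685-122771989 and chr11:120414628-120414957 had control means of 0.63 and 0.48, below the highest class. Pearson's r between level and difference was 0.44 over the 209 distal and 0.32 over the 11618 inner islands, as a description of islands that share arrays and probe composition. Of the 33 distal islands in the highest class 30 had a difference above 0 (90.9%; inner 82.7%), but within slide 1 it was 21 of 33, with a median difference of 0.10. At these islands the array with the widest SD, that of Mdr2-/+ replicate 1, stood on the control side within slide 1. The part of array spread in this pattern was not tested.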

How the data were processed

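Sheared liver DNA of 6 mice (3 per genotype) was precipitated with an antibody against 5-methylcytosine and hybridised with its input to Agilent mouse CpG island arrays of 60-mer probes designed on mm8. The authors deposited scanner intensities, corrected for background and dye by Agilent Feature Extraction (8.5.1.1 in the submitters' processing notes, 10.5.1.1 in the file headers) and not normalized between arrays. They also deposited a normalized score per probe, used as an alternative only. Among 88737 probes, 91 were dropped because Feature Extraction marked their spot as an outlier on at least 1 array. The log2 ratio of the processed signals was centred on the median of each array and averaged over the probes of an island. All 13821 islands with 3 or more usable probes were fitted with limma 3.58.1 (R 4.3.3), with all 6 arrays and no covariate, in two-sided tests adjusted by the Benjamini-Hochberg method over every island tested. Groups follow the sample labels, and a mouse is a replicate. Precision is limited by there being only 6 arrays.

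The members and the rule for naming them were chosen with earlier results of these data known. The rule named the 10 largest called rises, the 5 largest falls without overlap where none was called, the most distal island of each chromosome and the 3 highest and 3 lowest levels. The replicate numbers did not pair the livers, since same-numbered livers deviated together with r = 0.11, -0.09 and 0.12. No mm8 genome or annotation was used here, so no gene is named and no sequence is shown, and the coordinates are those of the probes. Alternatives covered background correction, normalization, islands, bands, slides, weights and each array left out.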

Additional observations from a re-analysis of the deposited data

How the results depend on the processing

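The count of distal islands called higher, 12, moved with the processing, and the share called of all islands moved with it. It was 0 under normexp background correction (0% of all islands), 5 with loess within arrays (2.39%; 2.89% of all), 20 with quantile normalization (9.57%; 7.18% of all), 25 with arrays divided by their SD (12.0%; 9.19% of all), 6 with the median over probes (2.87%; 3.34% of all), 0 with slide as a fixed block, 42 with array weights (20.1%; 18.5% of all) and 19 of 423 islands in a band of 3 Mb (4.49%; 4.28% of all). The test named in the study's methods gave 29 without (13.9%; 11.5% of all) and 0 with adjustment (0.0289% of all). The authors' deposited scores gave 28 of 156 islands (17.9%; 13.2% of 10529 in all). It stayed within 1.5 times under centring on inner islands, without the outlier filter, with dim input left out, with other gaps or at least 5 probes, in a band of 0.75 Mb and with slide as a random block. In these settings the distal share was 3.83% to 9.02% and that of all islands 3.28% to 6.46%. Leaving out an array gave 0 (without Mdr2-KO replicate 1; 0.239% of all) to 41 (without Mdr2-/+ replicate 1; 19.6%, and 19.1% of all). The replicate block gave 10 higher (4.78%; 3.45% of all) and 0 lower (0.123% of all), and 4 of the 12 named rises were then not called. The count called lower, 0, became 6 with quantile normalization (2.87%; 2.75% of all), 2 with arrays divided by their SD (0.957%; 1.06% of all) and 10 with array weights (4.78%; 4.12% of all). It became 12 by the test of the methods unadjusted (5.74%; 6.08% of all) and 5 with the deposited scores (3.21%; 3.02% of all). With an array left out it was 0 to 7. Leaving out Mdr2-/+ replicate 1 gave 7 (3.35%; 2.39% of all) and leaving out Mdr2-KO replicate 3 gave 1 (0.478%; 0.0434% of all). Normexp moved all medians, to 0.111 for distal and 0.109 for inner islands, and quantile normalization to -0.0387 and -0.0696. In a band of 0.75 Mb the distal median difference was -0.0277. With an array left out it was 0.00303 to 0.0490, and the inner one -0.0185 to 0.0317. The distal level minus the inner level, -0.10 over all 6 arrays, was -0.0438 with normexp, -0.0603 with loess, -0.142 with the median over probes, -0.135 with at least 5 probes and -0.161 in a band of 0.75 Mb, and -0.107 to -0.0888 with an array left out. Of islands past the Z-score threshold, 9 replaced 3 at a threshold of 0.5 and with a robust Z, and it was 3 to 6 with an array left out, 6 without Mdr2-KO replicate 3. The share of all islands was not counted for these Z-score settings, so they give no result about chromosome ends. The difference at chr11:120489089-120489676 turned to 0.0512 under normexp. With a shorter gap between probe starts, chr11:121518252-121519741 was split. Its first part then had a difference of -0.15, while the probes of its last part had differences of 0.78 to 2.19. The causes were not tested.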
